A study of Mus musculus with 8 samples.

Results

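The 39 genes described here are the messenger RNAs of glycolysis and of the hypoxia programme driven by hypoxia-inducible factor 1 (HIF1). They were taken by symbol from the 24421 genes of the deposited count table and split into 23 glycolytic genes, 15 targets of HIF1 that do not act in glycolysis, and Hif1a itself. The 23 glycolytic genes are 17 enzymes, 3 transporters of glucose or lactate and 3 regulators of flux. Glycolysis breaks glucose down to pyruvate in the cytosol, and lactate dehydrogenase then reduces pyruvate to lactate. HIF1 is a heterodimer whose alpha subunit, encoded by Hif1a, is hydroxylated by prolyl hydroxylases and destroyed when oxygen is present. When oxygen is scarce the alpha subunit is stable, and the dimer raises transcription of most glycolytic genes and of genes for mitophagy, collagen modification and vessel growth. Blood-forming stem cells of the marrow are known for relying on glycolysis.

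RNA was sequenced from 8 libraries of mouse HSPCs (haematopoietic stem and progenitor cells), which give rise to all blood lineages, taken from mice after a primary transplant. There were 4 groups of 2 libraries each. The dKO_PRMT1 cells were knockout (dKO) cells transduced with wild-type PRMT1, an arginine methyltransferase. The dKO_MUT cells were dKO cells transduced with an enzymatically dead PRMT1, although the genotype label of replicate 2 names PRMT2. The dKO_EV cells were dKO cells with an empty vector, and the WT_EV cells were wild-type cells with an empty vector. The series title gives the 2 genes lost as β-catenin (Ctnnb1) and Hoxa9. Every group was transduced and passed through transplantation, and the age, strain and Cre driver were not given. The groups follow the sample titles, because the source label calls all 8 libraries dKO. Whether the libraries of a group came from separate animals was not stated, so the spread behind each p-value is that of these libraries only and could be technical.

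Library totals ran from 15531344 to 22329749 counts. Prmt1 had 981 and 976 CPM (the read count scaled to the size of the library) in dKO_PRMT1 and 1744 and 1758 CPM in dKO_MUT, against 190 and 194 CPM in dKO_EV and 188 and 192 CPM in WT_EV. Hoxa9 lay between 1.87 and 5.79 CPM in the 6 dKO libraries, against 18.2 and 17.2 CPM in WT_EV. Ctnnb1 lay between 360 and 391 CPM in the dKO libraries, against 444 and 455 CPM in WT_EV, and the deleted exons were not given. Xist was at 0 in all 6 dKO libraries and at 159 and 121 CPM in WT_EV. The Y-linked gene Ddx3y was at 58.2 to 68.5 CPM in the dKO libraries and at 0 in WT_EV. In every comparison with WT_EV, the effects of genotype and of the sex of the donor animals therefore cannot be told apart. Of the 39 genes only Pgk1 is on the X chromosome.

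The promoters of 6 genes are shown as examples of both classes, of genes that fell and of 1 that rose, and of windows with many, few or no matches to the HIF motif; they were chosen after values were seen. The windows run from 250 bases before to 50 bases after the annotated start and are from RefSeq (GRCm38.p6). Capitals mark the letters ACGTG or GCGTG, the core of the HIF response element, on either strand, where CACGTG is a match on both strands. Pgk1 is at chrX:106186850-106187149 (plus strand), Ldha at chr7:46845554-46845853 (plus), Bnip3 at chr7:138909457-138909756 (minus), P4ha1 at chr10:59323046-59323345 (plus), Tpi1 at chr6:124814109-124814408 (minus) and Ldhb at chr6:142507908-142508207 (minus).
Pgk1: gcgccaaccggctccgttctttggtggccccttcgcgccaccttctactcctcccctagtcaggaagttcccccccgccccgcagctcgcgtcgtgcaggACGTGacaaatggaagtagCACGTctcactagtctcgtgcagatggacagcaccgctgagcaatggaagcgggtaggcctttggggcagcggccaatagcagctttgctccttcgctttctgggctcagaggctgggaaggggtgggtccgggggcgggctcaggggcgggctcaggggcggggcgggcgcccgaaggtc
Ldha: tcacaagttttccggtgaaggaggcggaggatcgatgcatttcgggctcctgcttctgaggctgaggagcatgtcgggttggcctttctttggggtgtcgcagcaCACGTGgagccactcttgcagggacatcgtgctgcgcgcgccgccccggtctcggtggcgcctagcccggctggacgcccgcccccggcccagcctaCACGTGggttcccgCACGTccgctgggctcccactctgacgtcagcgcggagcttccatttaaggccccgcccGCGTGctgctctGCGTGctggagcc
Bnip3: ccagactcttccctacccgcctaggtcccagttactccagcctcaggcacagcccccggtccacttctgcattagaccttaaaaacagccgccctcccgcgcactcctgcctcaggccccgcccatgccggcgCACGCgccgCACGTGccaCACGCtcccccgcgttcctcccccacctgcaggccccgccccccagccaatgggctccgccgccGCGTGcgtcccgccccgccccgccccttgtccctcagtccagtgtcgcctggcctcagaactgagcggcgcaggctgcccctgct
P4ha1: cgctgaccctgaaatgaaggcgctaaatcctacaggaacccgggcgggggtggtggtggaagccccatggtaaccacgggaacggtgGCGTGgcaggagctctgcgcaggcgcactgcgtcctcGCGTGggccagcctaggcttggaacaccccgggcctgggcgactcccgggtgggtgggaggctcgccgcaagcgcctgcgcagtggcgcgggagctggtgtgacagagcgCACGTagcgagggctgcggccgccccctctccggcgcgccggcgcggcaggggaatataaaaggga
Tpi1: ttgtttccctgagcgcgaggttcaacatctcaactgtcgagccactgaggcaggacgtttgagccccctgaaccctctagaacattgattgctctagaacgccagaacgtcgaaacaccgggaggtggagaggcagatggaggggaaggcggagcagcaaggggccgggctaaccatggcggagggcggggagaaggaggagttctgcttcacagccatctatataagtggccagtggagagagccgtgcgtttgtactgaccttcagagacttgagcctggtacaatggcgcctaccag
Ldhb: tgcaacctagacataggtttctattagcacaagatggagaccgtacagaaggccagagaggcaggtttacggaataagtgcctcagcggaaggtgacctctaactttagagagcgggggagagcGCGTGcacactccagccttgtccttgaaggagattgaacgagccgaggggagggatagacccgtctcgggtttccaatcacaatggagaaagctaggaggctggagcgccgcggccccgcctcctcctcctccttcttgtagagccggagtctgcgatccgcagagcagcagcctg
The Ldha window held 7 matches, Bnip3 5, P4ha1 3, Pgk1 2 and Ldhb 1, while the Tpi1 window held 0. Windows were found for 35 of the 39 genes. At least 1 match was present in 17 of 22 glycolytic windows (77.3%) and in 11 of 12 windows of the other HIF targets (91.7%). Of all 32851 RefSeq windows, 14380 had a match (43.8%). Each of the 35 genes gave the 1 window nearest its start, whereas among all windows a gene can have more than 1. P4ha2 and Eno1 are counted here. The genes were listed as HIF targets or glycolytic genes beforehand, so a higher share can follow from that choice, and no test was made. At least 2 matches stood in 54.5% of the glycolytic windows, 66.7% of the other HIF target windows and 20.6% of all windows. A match is a run of letters, not a bound site.

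Both classes were lower in dKO_EV than in WT_EV. Of the 22 glycolytic genes with enough counts to be tested, 15 fell and 3 rose in dKO_EV. Of the other HIF targets, 8 fell and 1 rose of the 14 counted. P4ha2 had enough counts for the test in WT_EV alone. It is left out of the counts of changed genes and the median fold changes of this class, except where stated. Over all 12744 genes tested, 7.00% were called lower and 8.44% higher in this comparison. The median log2 fold change was -0.39 for the glycolytic genes and -0.47 for the other HIF targets, while the median over all genes was close to 0. A gene "fell" or "rose" where the quasi-likelihood test of edgeR gave a Benjamini-Hochberg adjusted p under 0.05 over all genes tested. Fold changes are log2 ± standard error between groups of 2 libraries. The standard errors were derived from the test statistic in a fit of all 8 libraries. That fit moderates the spread of each gene towards that of other genes (median prior degrees of freedom 30.4, beside 4 residual). Summed over the class, the glycolytic genes took 11519 and 11860 CPM in dKO_EV, against 16164 and 16136 CPM in WT_EV, a ratio of 0.724. The other HIF targets summed to 1053 and 1074 CPM in dKO_EV, against 1488 and 1511 CPM in WT_EV, a ratio of 0.709. The 2 classes thus stood at a similar distance below WT_EV, and no test of one class against the other was made. In bulk RNA, fewer cells of a type and less RNA per cell cannot be told apart.

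**Figure D1:**
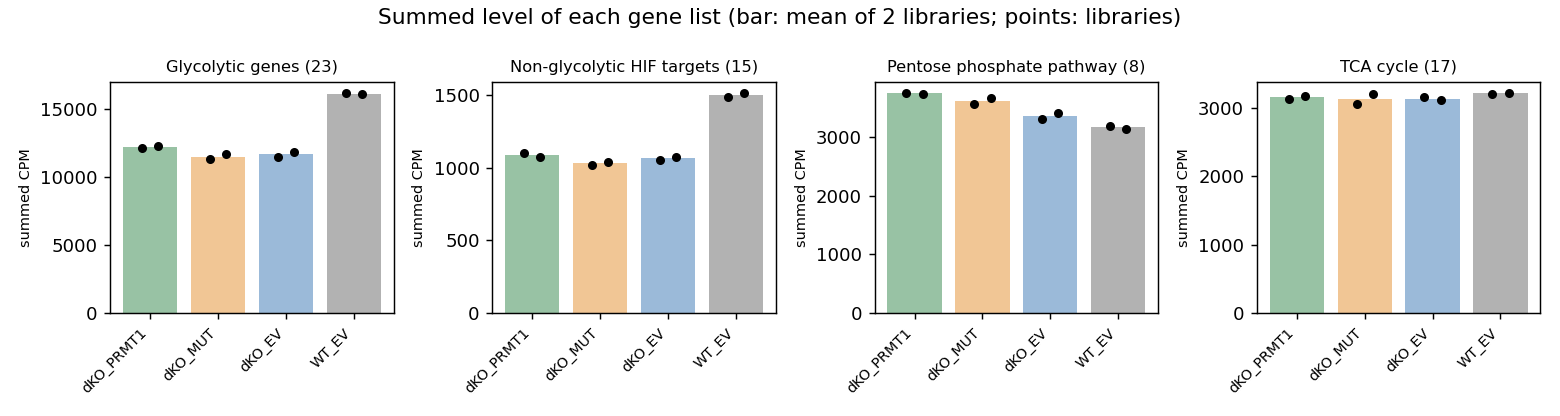
Summed CPM (y axis) of the glycolytic genes, the other HIF targets, the pentose phosphate pathway and the TCA cycle in the 4 groups, with bars for the mean of 2 libraries and points for the libraries. The 6 dKO libraries lie between 11311 and 12292 CPM for glycolytic genes, below both WT_EV libraries, while the TCA cycle lies between 3059 and 3211 CPM in all 8.

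Enzymes held most of the glycolytic sum, at 15561 and 15544 CPM in WT_EV, and so carried most of its difference. The ratio of dKO_EV to WT_EV was 0.722 for the enzymes and 0.781 for the transporters and regulators. Of the 16 enzymes tested 13 fell in dKO_EV and 2 rose, against 2 and 1 of the 6 transporters and regulators. Pgk1, phosphoglycerate kinase, had 597 and 629 CPM in dKO_PRMT1, 564 and 583 in dKO_MUT, 603 and 616 in dKO_EV, and 1108 and 1146 in WT_EV. All 6 dKO libraries lay close together and far below both WT_EV libraries. In dKO_EV it fell by 0.89 ± 0.04 on the log2 scale relative to WT_EV (edgeR adjusted p = 4e-20). Ldha, the lactate dehydrogenase subunit that favours lactate formation, had 900 and 912 CPM in dKO_PRMT1, 848 and 882 in dKO_MUT, 957 and 961 in dKO_EV, and 1626 and 1687 in WT_EV. Here too no dKO library reached a WT_EV library, and the dKO_EV fold change was -0.79 ± 0.03 (edgeR adjusted p = 9.33e-20). Tpi1, triosephosphate isomerase, had 473 and 495 CPM in dKO_PRMT1, 435 and 460 in dKO_MUT, 487 and 485 in dKO_EV, and 850 and 874 in WT_EV. The groups did not overlap, with dKO_EV at -0.83 ± 0.04 relative to WT_EV (edgeR adjusted p = 1.1e-18). Aldoa, the main aldolase, had 1410 and 1403 CPM in dKO_PRMT1, 1267 and 1284 in dKO_MUT, 1372 and 1446 in dKO_EV, and 2058 and 1974 in WT_EV. Its dKO_EV libraries stood below both WT_EV libraries, at -0.52 ± 0.03 (edgeR adjusted p = 1.17e-14).

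The remaining enzymes ran through the pathway as follows. At the entry step, Hk1 fell by 0.25 in dKO_EV, Hk2 was at -0.02 and did not pass the test, and Hk3, the hexokinase of myeloid cells, rose by 0.18. Gpi1, the isomerase after hexokinase, fell by 0.27. All 3 phosphofructokinases, the committed step, fell: Pfkl by 0.79, Pfkp by 0.42 and Pfkm by 0.40. The minor aldolase Aldoc fell by 1.31, the furthest of the tested enzymes. Further down, Gapdh fell by 0.41, the mutase Pgam1 by 0.35 and the pyruvate kinase Pkm by 0.38. The Hk3 call was lost without WT_EV replicate 1, and the Pfkm call without WT_EV replicate 1, WT_EV replicate 2 or dKO_EV replicate 2. Gapdh, Pgk1, Ldha, Aldoa, Tpi1 and Pkm have near-identical copies elsewhere in the genome, and their counts are uncertain where the authors' counting split reads between copies.

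Per kilobase of gene length (RPKM), Gapdh was the most abundant of the 22 glycolytic genes, with a mean of 2098 RPKM over the 8 libraries, and Aldoc the least, with 6.47 RPKM. The class median was 44.6 RPKM. Among the other HIF targets the mean levels ran from 0.111 RPKM for P4ha2 to 452 RPKM for Mif, with a median of 21.5 RPKM. Gapdh and Aldoc both fell in dKO_EV, so the glycolytic genes that fell included the most and the least abundant of the 22.

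Ldhb, the subunit that favours lactate use, went against its partner. Its levels were 31.6 and 36.2 CPM in dKO_PRMT1, 34.0 and 34.0 in dKO_MUT, 27.5 and 21.0 in dKO_EV, and 10.8 and 10.4 in WT_EV. Every dKO library was above both WT_EV libraries, and in dKO_EV the gene rose 2.27-fold (log2 1.18 ± 0.14, edgeR adjusted p = 6.86e-08). As a share of the summed RPKM of Ldha and Ldhb, Ldhb made up 4.94% and 5.56% in dKO_PRMT1, 5.60% and 5.40% in dKO_MUT, 4.08% and 3.13% in dKO_EV, and 0.975% and 0.903% in WT_EV. Ldha was thus still the major form in every library.

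**Figure D2:**
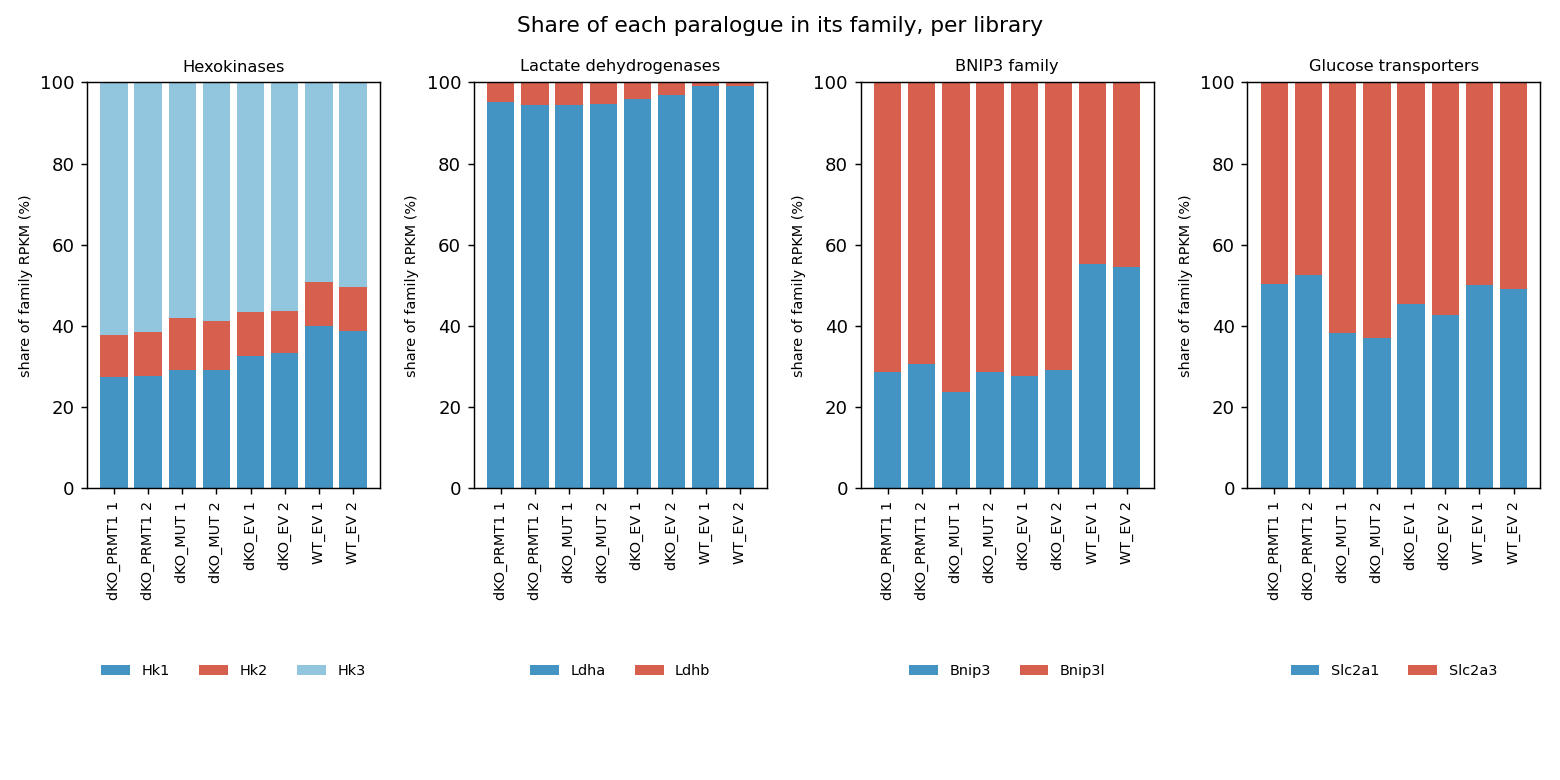
Share of each paralogue in the summed RPKM of its family (y axis, percent) for hexokinases, lactate dehydrogenases, the BNIP3 family and glucose transporters, 1 bar per library. Ldhb is 3.13% or more of its family in every dKO library, and Bnip3 takes 23.8% to 30.6% of its family in dKO libraries against 55.3% and 54.5% in WT_EV.

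Among the transporters, Slc16a3, the lactate exporter MCT4 and a known HIF target, had 106 and 110 CPM in dKO_PRMT1, 78.7 and 82.6 in dKO_MUT, 104 and 118 in dKO_EV, and 216 and 209 in WT_EV. It fell by 0.93 ± 0.06 in dKO_EV relative to WT_EV (edgeR adjusted p = 1.95e-14), with the dKO_MUT libraries lowest of all. The glucose transporters Slc2a1 (log2 -0.17) and Slc2a3 (0.15) did not pass the test. Of the regulators, Pdk1, the kinase that keeps pyruvate out of the mitochondrion, fell by 0.87. Pfkfb4, a bifunctional enzyme that sets the phosphofructokinase activator fructose 2,6-bisphosphate, had 65.7 and 62.1 CPM in dKO_PRMT1, 61.3 and 72.3 in dKO_MUT, 55.0 and 48.9 in dKO_EV, and 36.1 and 36.7 in WT_EV. It rose in dKO_EV by 0.51 ± 0.09 (edgeR adjusted p = 0.000102), whereas its relative Pfkfb3 stood at 0.04 and did not pass the test.

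Eno1 was not tested. It had 0 counts in 7 libraries and 2 counts in dKO_MUT replicate 2, and 92.8% of its exon bases lie in exons of Eno1b on the same strand. Its value here therefore says nothing about enolase.

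The HIF targets outside glycolysis are given by role. Bnip3, a mitochondrial receptor for mitophagy, had 32.6 and 33.0 CPM in dKO_PRMT1, 24.1 and 29.0 in dKO_MUT, 32.6 and 33.1 in dKO_EV, and 105 and 109 in WT_EV. No dKO library came near WT_EV, and the dKO_EV level was 3.26-fold lower (log2 -1.70 ± 0.09, edgeR adjusted p = 6.74e-17). Its paralogue Bnip3l, also a mitophagy receptor, was at -0.10 and did not pass the test. Bnip3 made up 27.8% and 29.2% of the summed RPKM of this pair in dKO_EV, against 55.3% and 54.5% in WT_EV. Higd1a, a small mitochondrial protein induced by hypoxia, fell by 0.52 in dKO_EV.

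Mif, a secreted cytokine, had 206 and 213 CPM in dKO_PRMT1, 208 and 213 in dKO_MUT, 212 and 219 in dKO_EV, and 368 and 362 in WT_EV. The 6 dKO libraries were within a narrow band below WT_EV, with dKO_EV at -0.76 ± 0.05 (edgeR adjusted p = 1.8e-15). Vegfa, the vascular growth factor, was at -0.01 and did not pass the test. P4ha1, a collagen prolyl hydroxylase subunit, had 44.5 and 43.3 CPM in dKO_PRMT1, 37.8 and 41.3 in dKO_MUT, 40.7 and 48.8 in dKO_EV, and 82.1 and 83.9 in WT_EV. The dKO_EV libraries were the more spread of the groups but did not overlap WT_EV, at -0.88 ± 0.09 (edgeR adjusted p = 1.58e-09). Ero1l, which re-oxidises protein disulphide isomerase in the endoplasmic reticulum, had 236 and 235 CPM in dKO_PRMT1, 202 and 211 in dKO_MUT, 193 and 209 in dKO_EV, and 269 and 283 in WT_EV. It fell by 0.46 ± 0.05 in dKO_EV (edgeR adjusted p = 8.18e-09), with dKO_PRMT1 between the other dKO libraries and WT_EV.

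Egln3 and Egln1, oxygen-sensing prolyl hydroxylases that mark HIF for destruction and are themselves HIF targets, fell in dKO_EV by 0.72 and by 0.49. Egln2, the third of these enzymes and not among the 39 genes, was at 0.15 ± 0.08 and did not pass the test. It made up 42.2% and 40.4% of the summed RPKM of the 3 enzymes in dKO_EV, against 28.6% and 29.8% in WT_EV. Ndrg1, a stress-responsive gene, fell by 0.32. The histone demethylase Kdm3a (0.07), the mTOR inhibitor Ddit4 (-0.10) and Ankrd37 (-0.50 ± 0.39) did not pass the test. Bhlhe40, a transcriptional repressor, rose by 0.24 ± 0.08 (edgeR adjusted p = 0.0268), and this call was lost without dKO_EV replicate 2, WT_EV replicate 1 or WT_EV replicate 2, which left 0 of the class called higher. P4ha2 had 2 and 0 counts in dKO_PRMT1, 0 and 0 in dKO_MUT, 1 and 2 in dKO_EV, and 11 and 24 in WT_EV. It passed the count filter through WT_EV alone, so its counts are given as a description.

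Hif1a RNA had 143 and 139 CPM in dKO_PRMT1, 132 and 131 in dKO_MUT, 132 and 137 in dKO_EV, and 137 and 139 in WT_EV. The dKO_EV libraries overlapped those of WT_EV and of dKO_MUT, both dKO_PRMT1 libraries were above the other 6 by a small amount, and both dKO_MUT libraries were below WT_EV. No comparison called the gene, and its log2 fold change in dKO_EV relative to WT_EV was -0.03 ± 0.06. HIF activity is set mainly by the stability of the protein, which was not measured.

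**Figure D3:**
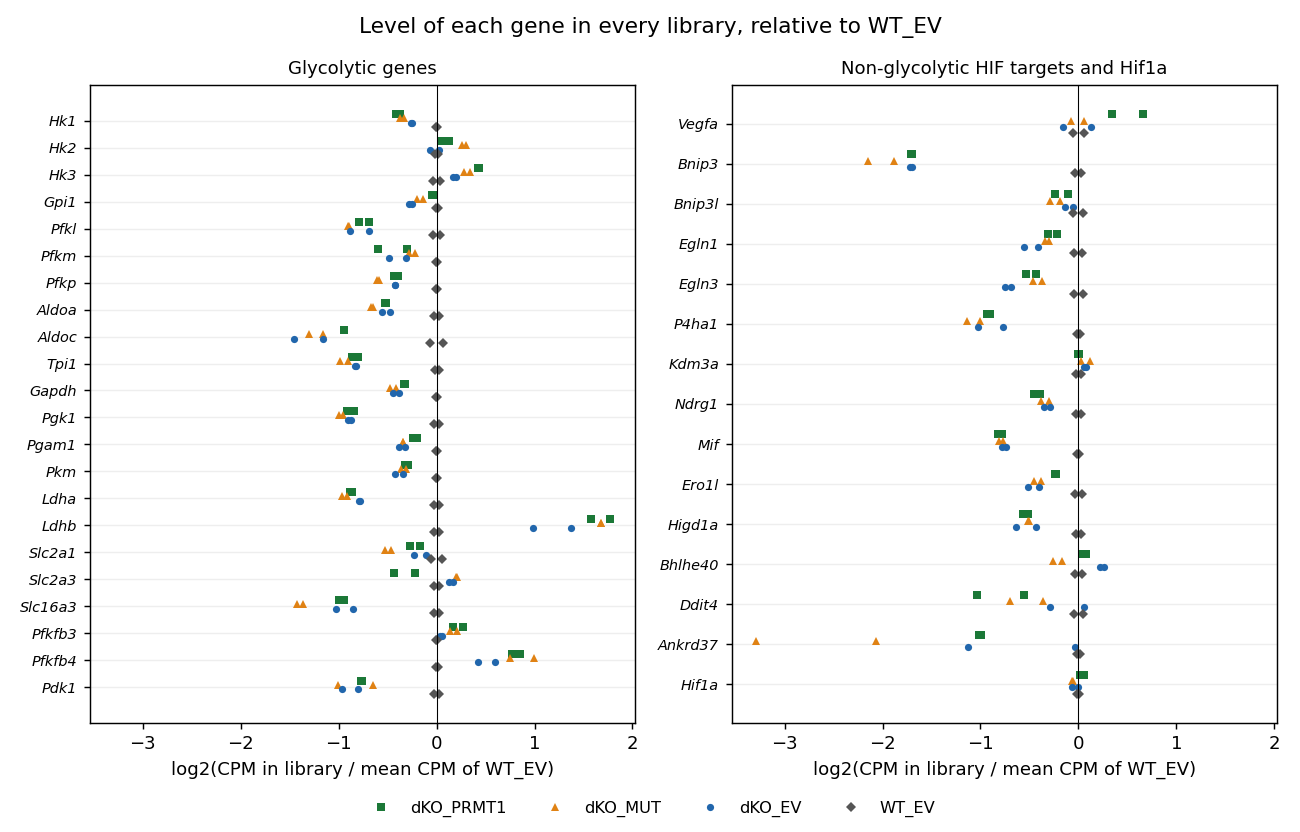
Level of each gene in each library as the log2 ratio to the mean CPM of WT_EV (x axis), with green squares for dKO_PRMT1, orange triangles for dKO_MUT, blue circles for dKO_EV and grey diamonds for WT_EV; Eno1 and P4ha2 are not drawn. Most rows lie left of 0 in all 6 dKO libraries, while Ldhb and Pfkfb4 lie to the right.

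The shift held across the dKO groups. Of the 37 genes tested other than P4ha2, 26 had all 6 dKO libraries below both WT_EV libraries and 4 had all 6 above, against 13.2% and 12.8% of all genes. By class, 16 glycolytic genes and 10 other HIF targets were below, and 4 glycolytic genes (Hk3, Ldhb, Pfkfb3 and Pfkfb4) and 0 other HIF targets were above. Relative to WT_EV, 15 glycolytic genes fell and 5 rose in dKO_MUT, and 12 of 14 other HIF targets fell, against 9.96% and 9.41% of all genes. In dKO_PRMT1, 15 glycolytic genes fell and 4 rose, and 10 of 14 other HIF targets fell and 1 rose, against 12.2% and 11.0% of all genes. These comparisons share the WT_EV libraries with the one above. With P4ha2 among those tested, DESeq2 called 11 other HIF targets lower in dKO_MUT and 9 in dKO_PRMT1, against 13 and 11 by edgeR. In both groups the Egln1 call was lost without WT_EV replicate 1, and the Bnip3l call without WT_EV replicate 2. The Bhlhe40 and Ddit4 calls in dKO_MUT were lost without either WT_EV replicate. Side by side, Bnip3 stood at -1.71 ± 0.09 in dKO_PRMT1, -2.02 ± 0.09 in dKO_MUT and -1.70 ± 0.09 in dKO_EV relative to WT_EV. Ldha stood at -0.87 ± 0.03 in dKO_PRMT1, -0.94 ± 0.03 in dKO_MUT and -0.79 ± 0.03 in dKO_EV. Pgk1 was at -0.88 ± 0.04 in dKO_PRMT1, -0.97 ± 0.04 in dKO_MUT and -0.89 ± 0.04 in dKO_EV. Tpi1 stood at -0.83 ± 0.04 in dKO_PRMT1, -0.95 ± 0.04 in dKO_MUT and -0.83 ± 0.04 in dKO_EV. For Slc16a3 the values were -0.97 ± 0.06 in dKO_PRMT1, -1.40 ± 0.06 in dKO_MUT and -0.93 ± 0.06 in dKO_EV. Ldhb was 1.68 ± 0.14 in dKO_PRMT1, 1.68 ± 0.14 in dKO_MUT and 1.18 ± 0.14 in dKO_EV. The single riser among the other HIF targets in dKO_PRMT1, Vegfa, was lost without dKO_PRMT1 replicate 1, which left 0.

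Cell type markers moved in the same comparisons. Neutrophil granule and receptor genes (10 markers) summed to 13985 and 14816 CPM in dKO_EV, against 7897 and 8078 CPM in WT_EV, and 10 of 10 rose. Mast cell and basophil markers summed to 585 and 608 CPM in dKO_EV, against 1231 and 1274 CPM in WT_EV, and 5 of 6 fell. For stem and progenitor markers the sums were 1122 and 1089 CPM in dKO_EV and 1310 and 1278 CPM in WT_EV, with 5 of 10 lower, and all 10 of these markers passed 1 CPM in at least 1 library. Monocyte and macrophage markers summed to 9021 and 9990 CPM in dKO_EV, against 10107 and 9952 CPM in WT_EV, and 5 of 10 fell. Erythroid markers, with the 5 globin genes at 0 in all 8 libraries, summed to 9.99 and 13.0 CPM in dKO_EV, against 28.9 and 29.5 CPM in WT_EV, and 2 of the 4 tested fell, Car1 and Klf1. Primary granule markers, genes of the promyelocyte, summed to 9753 and 9954 CPM in dKO_EV, against 9633 and 9413 CPM in WT_EV, with 2 of 4 higher and 1 lower.

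The markers also differed between the other dKO groups and WT_EV. Neutrophil markers summed to 15952 and 16274 CPM in dKO_PRMT1, where 8 of 10 rose, and to 18765 and 18878 CPM in dKO_MUT, where 10 of 10 rose. Mmp9 and Cxcr2 did not pass the test in dKO_PRMT1. Mmp9 had 78.6 and 79.9 CPM in dKO_PRMT1, against 97.0 and 82.9 CPM in WT_EV. Cxcr2 had 24.7 and 28.7 CPM in dKO_PRMT1, against 30.0 and 30.3 CPM in WT_EV. Primary granule markers summed to 14849 and 14861 CPM in dKO_PRMT1 and to 12371 and 12902 CPM in dKO_MUT, and 4 of 4 rose in each. Monocyte and macrophage markers summed to 7306 and 7319 CPM in dKO_PRMT1 and to 7940 and 7503 CPM in dKO_MUT, and in each 9 of 10 fell and 1 rose. Mast cell and basophil markers summed to 353 and 374 CPM in dKO_PRMT1, where 6 of 6 fell, and to 713 and 717 CPM in dKO_MUT, where 5 fell and 1 rose. Stem and progenitor markers summed to 1008 and 987 CPM in dKO_PRMT1, where 6 of 10 fell and 1 rose, and to 1085 and 1057 CPM in dKO_MUT, where 5 fell and 1 rose. Erythroid markers summed to 4.76 and 6.98 CPM in dKO_PRMT1, where 3 of the 4 tested fell, and to 11.0 and 8.63 CPM in dKO_MUT, where 2 fell. Over the 8 libraries B cell markers summed to 7.89 to 12.6 CPM, T and NK cell markers to 75.9 to 114 CPM with Cd3e at 0, and endothelial and stromal markers to 6.92 to 15.1 CPM with Cxcl12 at 0. The part of these cell types in the fall of the glycolytic genes and HIF targets was not tested.

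In other lists of glucose metabolism and hypoxia most genes did not pass the test in dKO_EV relative to WT_EV. Over all genes tested, 7.00% were called lower and 8.44% higher in this comparison. Of 11 tested glycolysis genes outside the 23, 1 fell and 1 rose: Slc16a1, the transporter MCT1, fell by 0.43, and Adpgk, an ADP-dependent glucokinase, rose by 0.60. Of 17 TCA cycle genes 1 fell, Idh2, by 0.21. Of 12 genes of pyruvate entry into the mitochondrion 1 fell, Pdha1, by 0.18, and 3 rose, including the pyruvate carrier subunits Mpc1 (0.58) and Mpc2 (0.33). Of 8 genes of the pentose phosphate pathway, which diverts glucose 6-phosphate to NADPH and ribose, 2 rose, Pgd by 0.14 and G6pdx by 0.12. Of 23 further hypoxia targets 8 fell and 2 rose, a larger part lower than over all genes, and their median log2 fold change was -0.21. Fam162a was at -0.82, Plaur at 0.56 and Tfrc at -0.35. Of 12 genes of the HIF machinery, such as partners and ubiquitin ligase subunits, 1 fell and 1 rose. Whether these lists differ from the glycolytic genes was not tested.

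With wild-type PRMT1 in dKO cells a few genes of each class changed by small amounts, and the class sums stayed below WT_EV. Relative to dKO_EV, 5 glycolytic genes rose and 2 fell in dKO_PRMT1, and 4 other HIF targets rose and 1 fell, against 5.96% higher and 8.67% lower of all genes. The medians were 0.06 for the glycolytic genes and -0.04 for the other HIF targets. The glycolytic sum was 12155 and 12292 CPM in dKO_PRMT1, against 11519 and 11860 CPM in dKO_EV. Gpi1 had 1371 and 1387 CPM in dKO_PRMT1, 1230 and 1283 in dKO_MUT, 1162 and 1183 in dKO_EV, and 1402 and 1422 in WT_EV. It rose by 0.23 ± 0.03 (edgeR adjusted p = 1.06e-06), so its dKO_PRMT1 libraries lay just under WT_EV. Slc2a3, the high-affinity glucose transporter GLUT3, had 84.0 and 72.1 CPM in dKO_PRMT1, 112 and 113 in dKO_MUT, 107 and 110 in dKO_EV, and 99.6 and 95.8 in WT_EV. The dKO_PRMT1 libraries were the lowest of all 8, and the gene fell by 0.47 ± 0.07 (edgeR adjusted p = 2.68e-06). Hk3 had 447 and 449 CPM in dKO_PRMT1, 404 and 421 in dKO_MUT, 381 and 373 in dKO_EV, and 325 and 340 in WT_EV. It was highest in dKO_PRMT1 and lowest in WT_EV, with a rise of 0.25 ± 0.04 (edgeR adjusted p = 1.58e-05). Ldhb, already above WT_EV, rose by a further 0.49 ± 0.13 (edgeR adjusted p = 0.00607), a call lost without dKO_EV replicate 2 or dKO_PRMT1 replicate 2. Smaller calls were Pfkfb4 (0.30), Pgam1 (0.13) and Hk1 (-0.14), each lost without either dKO_PRMT1 replicate.

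Among the other HIF targets Ero1l rose in dKO_PRMT1 by 0.23 ± 0.05 relative to dKO_EV (edgeR adjusted p = 0.00103), with the library values given above. Vegfa had 43.7 and 35.1 CPM in dKO_PRMT1, 28.9 and 26.4 in dKO_MUT, 30.4 and 24.9 in dKO_EV, and 26.7 and 28.8 in WT_EV. Both dKO_PRMT1 libraries were above the other 6, and the rise was 0.52 ± 0.12 (edgeR adjusted p = 0.00217). Ddit4, an inhibitor of mTOR signalling induced by stress, had 9.73 and 13.6 CPM in dKO_PRMT1, 12.4 and 15.5 in dKO_MUT, 16.4 and 20.8 in dKO_EV, and 20.7 and 19.3 in WT_EV. It fell by 0.68 ± 0.17 relative to dKO_EV (edgeR adjusted p = 0.00463), and its dKO_PRMT1 libraries overlapped those of dKO_MUT. The Vegfa and Ddit4 calls were lost without dKO_EV replicate 2 or dKO_PRMT1 replicate 1. Egln3 rose by 0.23 ± 0.08 (edgeR adjusted p = 0.0401), and Egln1, at 0.22, lay just past the threshold; both calls were lost by DESeq2. The 4 risers became 1 without dKO_PRMT1 replicate 1, and 2 without dKO_PRMT1 replicate 2, dKO_EV replicate 2 or either WT_EV replicate, and the 1 gene lower became 0 without dKO_EV replicate 2 or dKO_PRMT1 replicate 1. The 5 glycolytic risers became 3 without dKO_PRMT1 replicate 1 and 2 without dKO_PRMT1 replicate 2, and the 2 genes lower became 1 without dKO_EV replicate 2 or either dKO_PRMT1 replicate. Primary granule markers summed to 14849 and 14861 CPM in dKO_PRMT1, against 9753 and 9954 CPM in dKO_EV, mast cell and basophil markers to 353 and 374 CPM, against 585 and 608 CPM, and monocyte and macrophage markers to 7306 and 7319 CPM, against 9021 and 9990 CPM. Mature neutrophil markers summed to 15952 and 16274 CPM in dKO_PRMT1, against 13985 and 14816 CPM in dKO_EV. Of these 10 markers 5 were higher and 3 lower. Stem and progenitor markers summed to 1008 and 987 CPM, against 1122 and 1089 CPM, with 2 of 10 higher and 4 lower. The part of these marker lists in the calls was not tested.

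Genes of both classes also differed between dKO_MUT, with the enzymatically dead PRMT1, and dKO_EV, in both directions. Relative to dKO_EV, 6 glycolytic genes fell and 5 rose in dKO_MUT, and 3 other HIF targets fell and 1 rose, against 7.08% lower and 4.24% higher of all genes. The medians were 0.03 for the glycolytic genes and -0.03 for the other HIF targets. Slc16a3 fell by 0.46 ± 0.06 (edgeR adjusted p = 8.39e-07), and both dKO_MUT libraries were below the other 6. Hk2, the inducible hexokinase, had 127 and 133 CPM in dKO_PRMT1, 150 and 145 in dKO_MUT, 124 and 116 in dKO_EV, and 121 and 123 in WT_EV. It was highest in dKO_MUT, with a rise of 0.30 ± 0.06 relative to dKO_EV (edgeR adjusted p = 0.00026). Ldha fell by 0.15 ± 0.03 (edgeR adjusted p = 0.00189) and Aldoa by 0.14 ± 0.03 (edgeR adjusted p = 0.0023); both calls were lost without dKO_MUT replicate 1, and that of Aldoa also without dKO_EV replicate 2. Slc2a1, the widespread glucose transporter GLUT1, fell by 0.32, a call lost without dKO_EV replicate 1 or dKO_MUT replicate 2. Pfkfb4 rose by 0.36 and Ldhb by 0.50, both calls lost without dKO_EV replicate 2, and that of Pfkfb4 also without dKO_MUT replicate 2.

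Bhlhe40 had 69.1 and 67.1 CPM in dKO_PRMT1, 55.0 and 58.4 in dKO_MUT, 76.3 and 78.4 in dKO_EV, and 67.2 and 64.0 in WT_EV. It was lowest in dKO_MUT and highest in dKO_EV, a difference of -0.45 ± 0.08 (edgeR adjusted p = 4.4e-05). Ankrd37, a small ankyrin repeat protein, had 2.51 and 2.48 CPM in dKO_PRMT1, 0.513 and 1.19 in dKO_MUT, 4.90 and 2.28 in dKO_EV, and 4.95 and 5.06 in WT_EV. Its levels were low throughout and lowest in dKO_MUT, at -2.07 ± 0.45 relative to dKO_EV (edgeR adjusted p = 0.00139), a call lost without dKO_EV replicate 1 or dKO_MUT replicate 1. Egln3 had 65.1 and 60.8 CPM in dKO_PRMT1, 67.9 and 63.8 in dKO_MUT, 52.3 and 54.6 in dKO_EV, and 91.0 and 85.1 in WT_EV. It rose by 0.30 ± 0.08 in dKO_MUT relative to dKO_EV (edgeR adjusted p = 0.00824), and remained below WT_EV; this call too was lost without dKO_MUT replicate 1. Bnip3 fell by a further 0.31 ± 0.10 (edgeR adjusted p = 0.0319), a call lost without any 1 of the dKO_EV or WT_EV libraries or dKO_MUT replicate 1, by DESeq2 and in a fit of these 2 groups alone. The 6 glycolytic genes lower became 3 without dKO_EV replicate 1 and 2 without dKO_MUT replicate 1, and the 5 higher became 2 without dKO_EV replicate 2 or dKO_MUT replicate 2. The 3 other HIF targets lower became 1, and the 1 higher became 0, without dKO_MUT replicate 1. Mature neutrophil markers summed to 18765 and 18878 CPM in dKO_MUT, against 13985 and 14816 CPM in dKO_EV, with 8 of 10 higher. Monocyte and macrophage markers summed to 7940 and 7503 CPM, against 9021 and 9990 CPM, with 9 of 10 lower. Primary granule markers summed to 12371 and 12902 CPM, against 9753 and 9954 CPM, with 4 of 4 higher. Mast cell and basophil markers summed to 713 and 717 CPM, against 585 and 608 CPM, with 4 of 6 higher. The part of these marker lists was not tested.

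**Figure D4:**
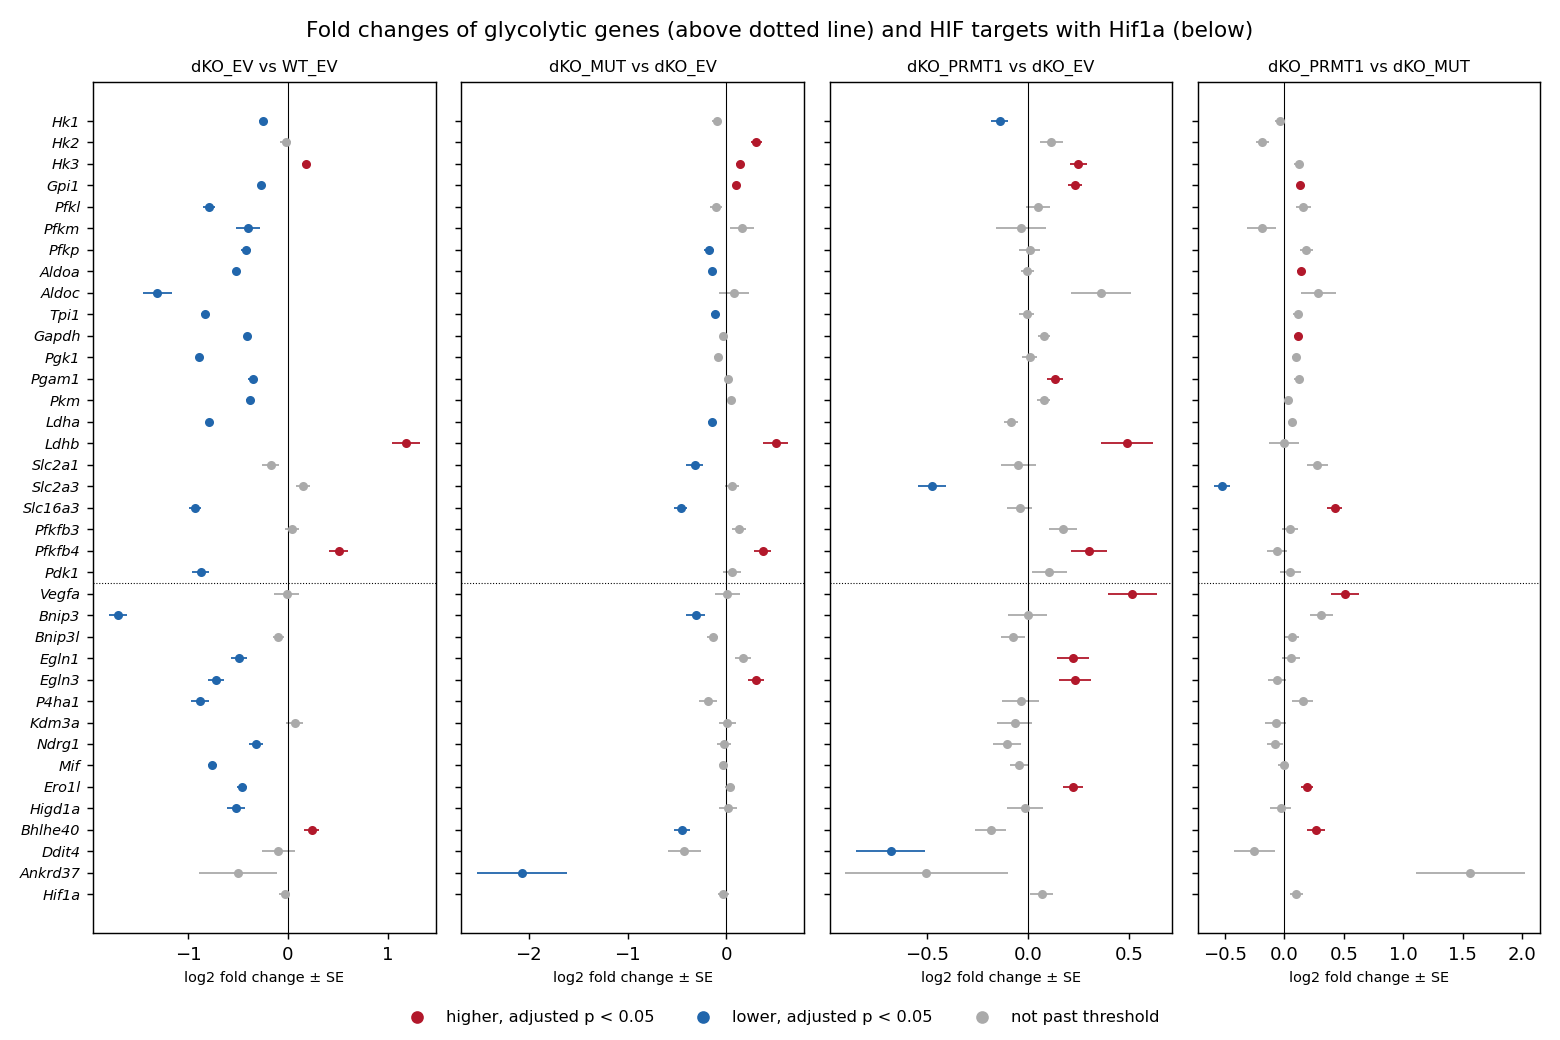
Log2 fold change ± standard error (x axis) of each gene in 4 comparisons of 2 libraries each, with genes past an adjusted p of 0.05 in blue (lower) or red (higher) and others in grey; the x scale differs between panels, and Eno1 and P4ha2 are not drawn. In dKO_EV vs WT_EV 23 of the 37 genes drawn are lower, while in dKO_PRMT1 vs dKO_MUT 1 is lower and 7 are higher.

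In the direct comparison of wild-type with dead PRMT1, the inserts differ in catalytic form and the groups also differ in the level of Prmt1 RNA. Of the glycolytic genes 4 were higher and 1 lower in dKO_PRMT1 than in dKO_MUT, and of the other HIF targets 3 were higher and 0 lower, against 1.43% higher and 1.68% lower of all genes; the medians were 0.10 and 0.06. The count of 0 lower was also 0 at an unadjusted edgeR p under 0.05 and 0 by DESeq2. Slc2a3 was lower in dKO_PRMT1, at -0.53 ± 0.07 (edgeR adjusted p = 1.85e-06), and Slc16a3 was higher by 0.42 ± 0.06 (edgeR adjusted p = 2.05e-05), while Slc2a1 was at 0.28 ± 0.09 and did not pass the test. As a share of the summed RPKM of Slc2a1 and Slc2a3, Slc2a3 made up 49.6% and 47.5% in dKO_PRMT1 and 61.7% and 62.9% in dKO_MUT. Aldoa was higher by 0.14 ± 0.03 (edgeR adjusted p = 0.00872), Gpi1 by 0.13 ± 0.03 (edgeR adjusted p = 0.0116) and Gapdh by 0.11 ± 0.03 (edgeR adjusted p = 0.0236). Of the other HIF targets Vegfa was higher by 0.51 ± 0.12 (edgeR adjusted p = 0.00943), Ero1l by 0.19 ± 0.05 (edgeR adjusted p = 0.0237) and Bhlhe40 by 0.26 ± 0.08 (edgeR adjusted p = 0.0489).

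The calls for Slc2a3 and Slc16a3 held under every alternative, and the others did not. The 4 glycolytic genes higher became 1 without either dKO_PRMT1 replicate or without dKO_MUT replicate 1, and the 1 lower became 2 without either dKO_EV replicate. The 3 other HIF targets higher became 0 without dKO_PRMT1 replicate 1, 1 without dKO_PRMT1 replicate 2 or dKO_MUT replicate 1, and 5 without either dKO_EV replicate. Aldoa and Ero1l lost their calls without any 1 of the 4 libraries compared, Gpi1 and Gapdh without dKO_MUT replicate 1 or either dKO_PRMT1 replicate, and Vegfa without dKO_MUT replicate 2 or dKO_PRMT1 replicate 1. The Bhlhe40 call was lost without any 1 of these 4 libraries or of the WT_EV libraries, by DESeq2, and with the replicate number as a block. Mature neutrophil markers summed to 15952 and 16274 CPM in dKO_PRMT1, against 18765 and 18878 CPM in dKO_MUT, with 9 of 10 lower, and mast cell and basophil markers to 353 and 374 CPM, against 713 and 717 CPM, with 6 of 6 lower. Primary granule markers summed to 14849 and 14861 CPM in dKO_PRMT1, against 12371 and 12902 CPM in dKO_MUT, with 4 of 4 higher, and 3 of 10 monocyte and macrophage markers were higher and 0 lower. The part of these markers in the calls was not tested. Prmt1 RNA itself was lower in dKO_PRMT1 than in dKO_MUT, so the catalytic form and the level of the insert cannot be told apart.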

How the data were processed

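RNA was extracted by RNeasy Plus Micro columns and made into strand-marked libraries by NEB Ultra II Directional chemistry, per the labels' protocols. The submitters' processing notes name Trim Galore 0.6.6, STAR 2.7.6a, featureCounts and GRCm38 (mm10); the counting strand and the annotation were not given in the sources used here, and overlapping genes cannot be separated by strand. The authors deposited raw counts per gene with gene lengths. Here edgeR 4.0.16 in R 4.3.3 kept 12744 genes (filterByExpr), scaled libraries by TMM and fitted the 8 libraries together by group alone (robust quasi-likelihood test, 4 residual degrees of freedom, Benjamini-Hochberg threshold 0.05). The steps were tested on simulated data. CPM use TMM-scaled sizes, and RPKM divide CPM by the deposited gene length. Full values are given for up to 4 called genes of each class and comparison with the smallest p, and up to 3 genes of other lists; Gapdh in dKO_PRMT1 vs dKO_MUT, and Ldhb, Slc16a3, Pfkfb4 and Bhlhe40 in dKO_EV vs WT_EV, were added after their values were seen. Members and lists were chosen with earlier results of these data known, and the count of genes with no overlap between dKO and WT_EV and the omission of P4ha2 from counts and medians were chosen after seeing the data. Alternatives were DESeq2 1.42.0, its size factors, no count filter, a fit of the 2 groups compared, a replicate block and each library left out. Replicates differed by more than sampling noise (chi-square per degree of freedom 3.63 to 6.39).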

Additional observations from a re-analysis of the deposited data

How the results depend on the processing

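No called direction reversed under DESeq2, DESeq2's size factors, no count filter, a fit of only the 2 groups compared, the replicate block or leaving out any library. Called genes that kept their call under all of these numbered 24 of 27 in dKO_EV vs WT_EV, 27 of 33 in dKO_MUT vs WT_EV and 23 of 31 in dKO_PRMT1 vs WT_EV (P4ha2 is among the 33 and the 31), 3 of 15 in dKO_MUT vs dKO_EV, 4 of 12 in dKO_PRMT1 vs dKO_EV and 2 of 8 in dKO_PRMT1 vs dKO_MUT. In a fit of the 2 groups compared, 3 glycolytic genes were higher in dKO_MUT vs dKO_EV, 2 other HIF targets were higher in dKO_PRMT1 vs dKO_EV (also 2 by DESeq2), and 2 glycolytic genes were lower in dKO_PRMT1 vs dKO_MUT; the cause was not tested. Replicate numbers do not pair the libraries: the deviations of same-numbered libraries correlated at -0.0423 to 0.0203 over 9945 genes. With the replicate block, 1952 genes were called in dKO_EV vs WT_EV, 1414 in dKO_MUT vs dKO_EV, 1853 in dKO_PRMT1 vs dKO_EV, 403 in dKO_PRMT1 vs dKO_MUT, 2462 in dKO_MUT vs WT_EV and 2953 in dKO_PRMT1 vs WT_EV, each within 1.5 times the fit without it.

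Leaving out 1 library at a time leaves that group with 1 library, assumed to vary like the others. For dKO_EV vs WT_EV the genes called then ranged from 1149 to 1996 and the other HIF targets higher from 0 to 1. In dKO_MUT vs dKO_EV the glycolytic genes higher ranged from 2 to 5 and lower from 2 to 5, and the other HIF targets higher from 0 to 1 and lower from 1 to 3. For dKO_PRMT1 vs dKO_EV the genes called ranged from 1058 to 1945, the glycolytic genes higher from 2 to 5 and lower from 1 to 2, and the other HIF targets higher from 1 to 4 and lower from 0 to 1. In dKO_PRMT1 vs dKO_MUT the genes called ranged from 171 to 550, the glycolytic genes higher from 1 to 6 and lower from 1 to 2, and the other HIF targets higher from 0 to 5. For dKO_PRMT1 vs WT_EV the genes called ranged from 1954 to 3394 and the other HIF targets higher from 0 to 1. Few counts limit P4ha2 and Ankrd37.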

Other observations

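Some genes next to glycolysis that were not among the 39 changed in dKO_PRMT1 relative to dKO_EV, in both directions. Of 23 further hypoxia targets 4 rose and 3 fell, and of 11 other glycolysis genes 1 rose and 1 fell. In the TCA cycle 1 of 17 genes rose and 1 fell, and of 12 pyruvate entry genes 0 rose and 0 fell. Over all genes, 5.96% were called higher and 8.67% lower. In the pentose phosphate pathway 4 of 8 genes rose in dKO_PRMT1 and 3 of 8 in dKO_MUT relative to dKO_EV. The shares of all genes called higher were 5.96% and 4.24%. Calls of single genes outside the 39 were not rechecked under the alternatives. The genes named here beyond G6pdx were chosen after their values were seen. G6pdx, the first enzyme of the pathway and X-linked, had 465 and 465 CPM in dKO_PRMT1, 435 and 440 in dKO_MUT, 365 and 402 in dKO_EV, and 349 and 355 in WT_EV. Its fold change in dKO_PRMT1 relative to dKO_EV was 0.28 ± 0.04 on the log2 scale. Summed over its 8 genes, the pathway took 3742 and 3739 CPM in dKO_PRMT1, 3568 and 3664 in dKO_MUT, 3298 and 3415 in dKO_EV, and 3191 and 3137 in WT_EV, so its order over the groups differed from that of the glycolytic sum.

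Gys1, muscle-type glycogen synthase and a hypoxia target, had 104 and 103 CPM in dKO_PRMT1, 77.4 and 87.5 in dKO_MUT, 79.2 and 82.7 in dKO_EV, and 87.1 and 84.5 in WT_EV. Its dKO_PRMT1 libraries were above the other 6, with a rise of 0.36 ± 0.07 relative to dKO_EV and 0.33 ± 0.07 relative to dKO_MUT. Tfrc, the transferrin receptor for iron uptake, had 330 and 341 CPM in dKO_PRMT1, 272 and 280 in dKO_MUT, 267 and 275 in dKO_EV, and 343 and 350 in WT_EV. It was 0.31 ± 0.04 higher in dKO_PRMT1 than in dKO_EV and did not pass the test against WT_EV (-0.04 ± 0.04). Hmox1, haem oxygenase, was lower than in WT_EV in all 3 dKO groups, at -0.70 ± 0.08 in dKO_PRMT1, -0.78 ± 0.08 in dKO_MUT and -0.32 ± 0.08 in dKO_EV.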
